A study of Saccharomyces cerevisiae BY4741 with 40 samples.

Results

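The loss of Upf1 was examined in cells that already lack Rrp6. Transcription start site clusters (TSSCs, groups of neighbouring capped 5′-ends) were compared between *upf1∆rrp6∆* and *rrp6∆* cells over all 17812 TSSCs of the *RRP6* experiment, of 39519 TSSCs in the tables of both experiments of the study. The study mapped the capped 5′-ends of poly(A)+ RNA from budding yeast growing in rich medium, and its *RRP6* experiment held 12 libraries of 4 genotypes. The *rrp6∆* cells (BY4741 can1_delta, rrp6_delta::hphMX6) and the *upf1∆rrp6∆* cells (the same with upf1_delta::KANMX6 per the labels) gave 3 libraries each, from 2 strains each. For 1 of the double mutant strains and for the *upf1∆* strain the study's strain list names HIS3MX6 in place of KANMX6, so the marker is uncertain. The *upf1∆rrp6∆* cells are called the double mutant below. The wild-type (can1_delta) and *upf1∆* cells gave 3 libraries each as well. They serve here as the other background and, through their ratio, in the measure of repeat error. The other experiment with TSSCs, called the *SET2* experiment below, also had 3 libraries per genotype. It measured the *upf1∆* over wild-type ratio a second time. Its other comparison removed Upf1 from cells that lack Set2, a histone methyltransferase (*upf1∆set2∆* over *set2∆*). All strains carried the can1 deletion, and the double mutant differs from *rrp6∆* cells by the marked deletion of *UPF1*, which the table lists as *NAM7*. Each TSSC has 1 pooled, normalized number of reads per genotype, so no spread between libraries is known and no difference below was tested.

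Upf1 is an RNA helicase at the centre of nonsense-mediated mRNA decay (NMD), a cytoplasmic pathway that degrades RNAs on which ribosomes stop far from the 3′-end, as after a premature stop codon or a short ORF ahead of the main one. Rrp6 is an exonuclease of the nuclear exosome, which removes cryptic unstable transcripts (CUTs) before they leave the nucleus. Stable unannotated transcripts (SUTs) and Xrn1-sensitive unstable transcripts (XUTs) are other classes of pervasive non-coding RNA, and XUTs are named for the cytoplasmic exonuclease that degrades them. In *rrp6∆* cells nuclear decay of CUTs is impaired while NMD still acts, and in double mutant cells both are impaired.

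The sequences that follow are from the R64 reference of RefSeq and are written 5′ to 3′ along the transcript. They are shown because results below refer to them. The first set gives the bases around the first ATG between a TSSC and the annotated start codon (the ATG in capitals) for mRNAs with some of the highest ratios. The *FLR1* window lies at chrII:254839-254868, that of *DAL7* at chrIX:414743-414772, that of *APA2* at chrIV:1497827-1497856, all on the minus strand, and that of *STN1* at chrIV:610416-610445 on the plus strand.
FLR1: tacacagacaagATGaaacaattcggcatt
DAL7: ggacatttacgcATGtagtcttaattcttc
APA2: cctgtttcgaaaATGtgttgaactattgaa
STN1: tggcttttaataATGggttggagccatgga
In *FLR1*, *DAL7* and *APA2* the reading frame of this ATG closed before the start codon of the gene, and in *STN1* it ran out of frame into the ORF.

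The second set gives the first ORF after a TSSC in pervasive transcripts that stood far higher in the double mutant, with its ATG and its stop codon in capitals. CUT281 has it at chrXIII:24039-24098, CUT_GIM_0481 at chrVII:213129-213155 and XUT_11F-288 at chrXI:658861-658881, each on the plus strand, and XUT_2R-170 at chrII:380824-380832 on the minus strand.
CUT281: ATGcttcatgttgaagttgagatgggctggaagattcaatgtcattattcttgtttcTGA
CUT_GIM_0481: ATGggttttccacacacggtaactTGA
XUT_11F-288: ATGtttccaatagtcgaaTGA
XUT_2R-170: ATGgaaTAG
These ORFs held 19, 8, 6 and 2 codons in that order. After the stop codon the annotated transcripts went on for 2006, 106, 135 and 426 nt.

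The third set gives 60 bases upstream of the start clusters of the genes at the low end, on the minus strand of chrVIII:375099-375158 for *SPL2*, chrXIII:26182-26241 for *PHO84* and chrII:798813-798872 for *PHO89*, with the motif CACGTG in capitals.
SPL2: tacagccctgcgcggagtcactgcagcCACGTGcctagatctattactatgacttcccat
PHO84: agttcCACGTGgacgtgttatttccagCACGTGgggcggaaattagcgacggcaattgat
PHO89: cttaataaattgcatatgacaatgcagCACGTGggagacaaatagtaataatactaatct

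The deleted genes were looked at first. The TSSC of *RRP6* held 86 and 88 normalized reads in wild-type and *upf1∆* cells, 2 in *rrp6∆* cells and 7 in the double mutant, which accords with the labels. The *NAM7* TSSC held 280 reads in *rrp6∆* and 349 in double mutant cells, but it lies upstream of the deleted ORF and checks nothing. The values of all TSSCs summed to 4276051 in *rrp6∆* and 4842344 in double mutant cells. As a measure of repeat error, the log2 ratio of *upf1∆* over wild-type was available from both experiments for 12852 overlapping TSSCs. The SD of the difference between these 2 measurements was 0.77 where the mean value was under 3, 0.43 between 10 and 30, 0.19 between 100 and 1000 and 0.13 above.

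Without Upf1, many more TSSCs were higher than lower in the *rrp6∆* background. The set of TSSCs is not neutral in this respect. The authors filtered it on dependence on cap removal measured in *upf1∆rrp6∆* cells, so TSSCs low in the double mutant can have been lost. Among those kept, 1299 held 0 reads in *rrp6∆* and 106 in double mutant cells. How far the filter adds to the difference between the 2 directions was not tested. Of all TSSCs, 34.8% (6206) were more than 2-fold higher and 0.342% (61) more than 2-fold lower, with log2 ratios computed after 1 was added to both values, as for every fold below. The median log2 ratio was 0.65. XUTs and SUTs stood highest. Of 1667 XUT TSSCs 64.2% were more than 2-fold higher, with median values of 7 in *rrp6∆* and 23 in double mutant cells, and of 379 SUT TSSCs 53.0%, with medians of 10 and 26. Unnamed antisense TSSCs (49.5% of 1750), intergenic TSSCs (46.1% of 3011) and TSSCs inside ORFs in the sense direction (43.1% of 2978) followed. CUTs, at 32.9% of 1598 and with medians of 26 and 43, lay just under the share over all TSSCs. Of 5927 mRNA TSSCs 14.0% (828) were higher and 0.489% (29) lower, and their median values were 142 and 182. Stable non-coding RNAs and repeats had the smallest share, 8.57% of 502.

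**Figure D1:**
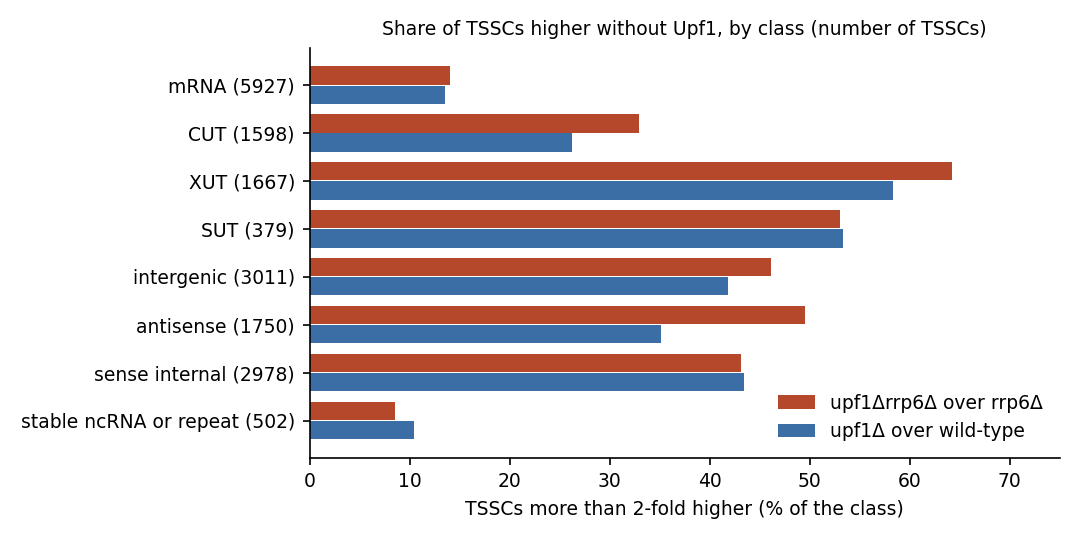
Share of TSSCs more than 2-fold higher without Upf1 (horizontal axis, percent of the class), in the *rrp6∆* background (red) and in the wild-type background (blue), for each class with its number of TSSCs. The share for antisense TSSCs is 49.5% in the *rrp6∆* and 35.1% in the wild-type background, and that for mRNA TSSCs is 14.0% and 13.5%. Antisense TSSCs lie near the floor in the wild-type background, with medians of 1 read in wild-type and 2 in *upf1∆* cells.

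Summed over a class, XUT reads were 2.95 times as high in *upf1∆rrp6∆* as in *rrp6∆* cells, SUT reads 2.49 times, CUT reads 1.73 times and mRNA reads 1.06 times. The authors scaled reads to those starting just ahead of ORFs, so an mRNA ratio near 1 is largely set by the scaling. It does not show whether total mRNA differed, and the other classes are measured relative to mRNA starts. The share of mRNA TSSCs in the total went from 89.7% to 84.1%. The mRNA share of higher TSSCs depended on the level, from 25.7% at a mean of 10 to 30 to 3.53% at 1000 or more, where the median log2 ratio was 0.00. Among XUTs the shares went the other way, 37.8% at means under 3 and 76.3% at 100 to 1000. CUTs varied little, between 26.9% and 34.6% at means under 1000.

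Most TSSCs that were higher in the *rrp6∆* background were also higher without Upf1 in cells with Rrp6. The *upf1∆* over wild-type ratio shares no library with this comparison, and 31.5% of all TSSCs were more than 2-fold higher and 0.764% lower in it. The 4324 TSSCs higher in both made up 69.7% of those higher in the *rrp6∆* background and 77.1% of those higher in the wild-type background. For CUTs the shared 289 were 54.9% and 69.1% of the lists, against 78.4% and 86.3% for the 839 shared XUTs. The medians of the 2 log2 ratios were 0.68 and 0.45 for CUTs, 1.43 and 1.32 for XUTs, 1.14 and 1.18 for SUTs and 0.17 and 0.07 for mRNAs. The median CUT TSSC held only 2 reads in wild-type and 3 in *upf1∆* cells, where the added 1 pulls ratios towards 0. For 645 CUT TSSCs matched between the experiments with a mean of at least 10, the medians were 0.82 and 0.81. For 417 such antisense TSSCs both were 1.49. Over 9923 TSSCs with a mean of at least 10 that matched between the experiments, the ratios correlated with r = 0.87, beside r = 0.94 between the repeat measurements of *upf1∆* over wild-type. Neighbouring TSSCs and TSSCs of a gene are not independent in these correlations.

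The mRNA TSSCs with the highest ratios were low in *rrp6∆* cells and lay far above that level in double mutant cells. They are the 10 highest log2 ratios among TSSCs with a mean of at least 20. *FLR1*, a plasma membrane drug exporter, had 134 reads in *rrp6∆* and 1496 in double mutant cells, an 11.1-fold difference. *APA2*, a diadenosine tetraphosphate phosphorylase, had 103 and 1093. *DAL7*, the malate synthase of allantoin breakdown, had 46 and 512 reads, and *ULI1*, a gene of the unfolded protein response, had 30 and 365. For these genes the log2 ratios lay between 3.40 and 3.56, and those of *upf1∆* over wild-type between 3.02 and 3.62, as with 146 and 1280 reads for *FLR1*. *YPR196W*, a putative regulator of maltose use, stood out from them with lower values in the *rrp6∆* background, 37 and 421 reads beside 136 in wild-type and 902 in *upf1∆* cells. *DOG2*, a 2-deoxyglucose-6-phosphate phosphatase (15 and 176), *YKL222C*, a putative transcription factor (9 and 103), *IPI3*, a factor of ribosome maturation (13 and 143), and *DSE3*, a daughter-cell gene (16 and 164), were between 9.71-fold and 11.1-fold higher. The largest ratio was that of *GIT1*, a glycerophosphoinositol permease, with 2 and 54 reads, in a TSSC inside its ORF.

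**Figure D2:**
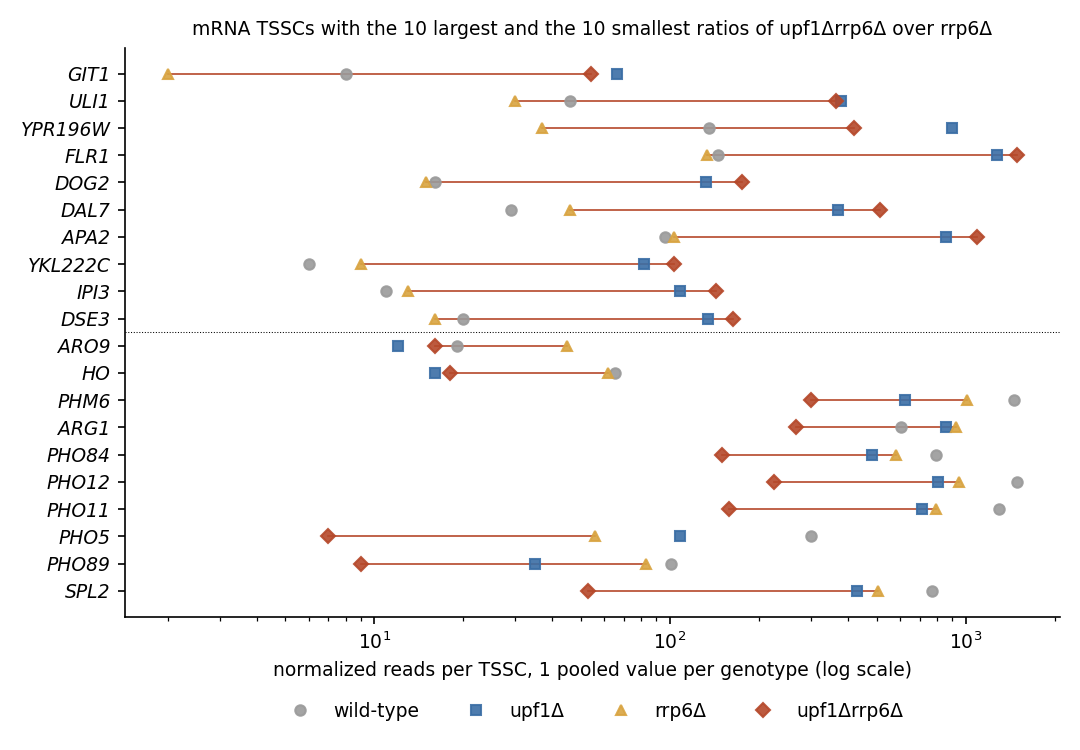
Normalized reads (log scale, 1 pooled value per genotype) of the 10 mRNA TSSCs with the highest and the 10 with the lowest ratio of *upf1∆rrp6∆* over *rrp6∆*, among those with a mean of at least 20; a line joins *rrp6∆* and *upf1∆rrp6∆*. *SPL2* lies at 53 in double mutant cells and above 400 in the other genotypes.

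Several of these genes have another start that stayed level. Of 5231 genes with an mRNA TSSC, 396 had several with a mean of at least 10, and in 117 of them (29.5%) 1 TSSC was more than 2-fold higher and another lay within 0.32 of 0 on the log2 scale. The higher TSSC was the upstream one in 93 genes and the downstream one in 24, and the level one was the larger in 86. *IPI3* had 13 and 143 reads at its upstream TSSC, and 91 and 93 at the one by its start codon. *STE5*, the scaffold of the mating kinase cascade, had 16 and 122 reads upstream and 64 and 57 downstream. *YAR1*, a chaperone of a ribosomal protein, had 97 and 513 upstream and 1544 and 1676 downstream. In *DAL7* the pattern was the same on a small scale, with 13 reads in both genotypes at the TSSC nearest the start codon. *DOG2* showed the reverse, since its higher TSSC lies inside the ORF and the one ahead of the ORF held 180 and 184 reads.

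The ratio followed the ATGs ahead of the start codon. For 3528 mRNA TSSCs that lie upstream of their start codon, 4.6% of those with no ATG in between were more than 2-fold higher, against 24.4% with 1 ATG, 53.5% with 2 and 65.7% with 3 or more. The medians were 0.06, 0.42, 1.07 and 1.58 in that order. The difference held within leaders of like length. Without an ATG the share stayed between 1.82% and 4.76% from leaders under 100 nt to those over 300 nt, and with an ATG it went from 30.9% to 57.6%. The fate of a single upstream ATG's frame gave no such order. Where it closed before the start codon the share was 24.1% (170 TSSCs, median 0.52), where it overlapped the ORF out of frame 25.9% (116, median 0.37), and 1 of 9 TSSCs with it in frame with the ORF was higher (median 0.12). *FLR1* had 15 upstream ATGs, *ULI1* 14 and *APA2* and *STN1* 1 each. Introns were not removed from leaders.

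**Figure D3:**
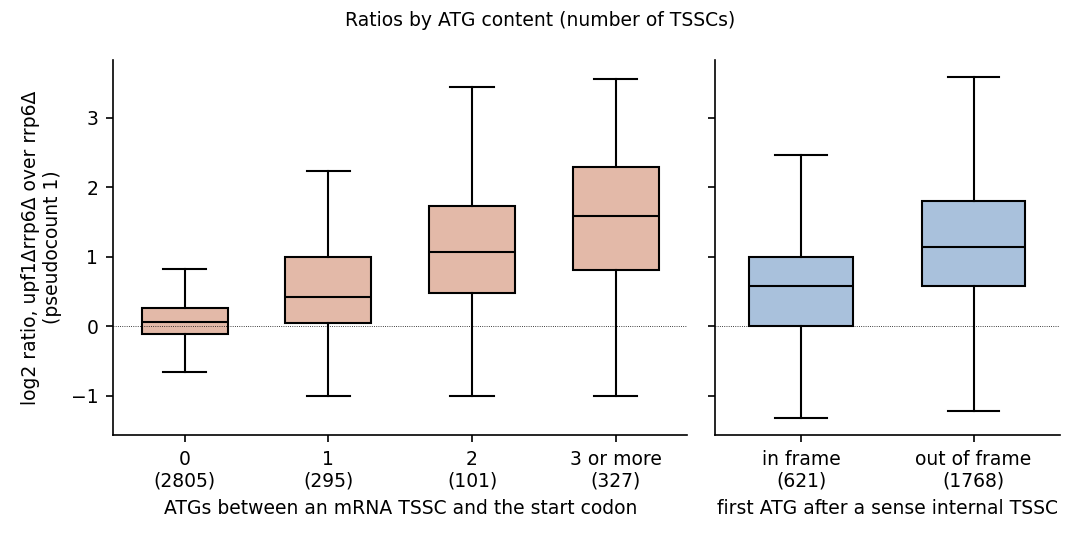
Log2 ratio of *upf1∆rrp6∆* over *rrp6∆* (vertical axis, pseudocount 1) of mRNA TSSCs by the number of ATGs before the start codon (left) and of sense internal TSSCs by the frame of the first ATG downstream (right). Boxes give the quartiles and the median, whiskers reach to 1.5 box heights, points beyond are not drawn and the numbers of TSSCs are in parentheses; the medians go from 0.06 with no ATG to 1.58 with 3 or more.

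TSSCs inside ORFs differed by the frame of the first ATG after them. Of 621 with that ATG in the frame of the ORF 22.9% were more than 2-fold higher (median 0.58), and of 1768 with it out of frame 51.8% (median 1.14). Out of frame the share was 63.1% where the TSSC lay in the first of 3 equal stretches of the ORF and 37.6% in the last, and in frame it was 27.4% and 20.9%. The highest of these TSSCs, inside the uncharacterized *YBR184W*, held 15 reads in *rrp6∆* and 387 in double mutant cells, and its first ATG was out of frame.

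In pervasive transcripts the share was higher the more RNA lay behind the first stop codon. Among XUTs it was 43.5% where the annotated end lay within 200 nt of that stop codon, 63.0% at 200 to 600 nt and 79.1% beyond. Among CUTs it was 23.2%, 37.3% and 63.0%, and among SUTs 38.8%, 51.3% and 72.7%. Where the stop codon lay past the annotated end it was 25.6% of 82 XUTs, 32.0% of 25 SUTs and, above the lowest of the CUT shares just given, 26.5% of 230 CUTs. By the size of the first ORF, up to 10, 11 to 30 and over 30 codons, the shares were 65.6%, 64.2% and 61.2% for XUTs, 35.7%, 31.9% and 29.3% for CUTs and 55.3%, 55.6% and 41.8% for SUTs, a smaller range in each class than by the RNA behind the stop codon. The share also rose with annotated length, up to 400 nt, 400 to 1000 nt and over 1000 nt. It was 54.7%, 59.3% and 71.1% for XUTs, 24.3%, 39.9% and 53.3% for CUTs and 32.6%, 53.2% and 65.9% for SUTs. Length and the RNA behind the stop codon were not separated. The highest named XUTs were XUT_11F-288 (1 read in *rrp6∆*, 48 in the double mutant), XUT_2R-170 (18 and 423) and XUT_4F-395 (13 and 258). Among CUTs, CUT281 (12 and 169), CUT_GIM_0481 (5 and 71) and CUT753 (5 and 66) were 11.2-fold to 13.1-fold higher. CUT_GIM_0481 had 49 reads in *upf1∆* cells with Rrp6 as well, whereas CUT281 had 9 and CUT753 had 2 there.

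Among unnamed TSSCs with a mean of at least 20 the highest ratio was that of an intergenic start just upstream of the deleted *NAM7* ORF and on the other strand, with 0 reads in wild-type and *rrp6∆*, 25 in *upf1∆* and 44 in double mutant cells. In both genotypes with reads there a marker replaces *NAM7*, on whose identity the labels and the strain list differ, and its part in these reads was not tested. Against *VBA3*, a vacuolar amino acid transporter gene close to an end of chromosome III, 1 read started in *rrp6∆* and 60 in double mutant cells. Against *HXT11*, a hexose transporter gene with close relatives, 7 and 113 reads started, and against *GAD1*, the glutamate decarboxylase gene, 3 and 68. Inside *ESC8*, a gene linked to silencing, 3 and 67 reads started, and the first ATG after that TSSC was out of frame.

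The pervasive transcripts whose ratios differed most between the backgrounds, with all 4 values at 10 or more, went either way. XUT_7R-426 had 43, 69, 41 and 392 reads in wild-type, *upf1∆*, *rrp6∆* and double mutant cells. CUT_GIM_0867 had 16, 12, 220 and 680, and CUT197 had 17, 15, 79 and 252. Both CUTs were thus low wherever Rrp6 was present. The opposite order was seen for SUT674, with 26 and 294 reads in wild-type and *upf1∆* but 20 and 75 in *rrp6∆* and double mutant cells, and for XUT_8R-189, with 27, 257, 92 and 252. The differences between the 2 log2 ratios were 2.56 for XUT_7R-426, 2.01 for CUT_GIM_0867 and -1.59 for SUT674. In repeats of *upf1∆* over wild-type, 95% of differences were within 0.35 at means of 100 to 1000, 0.55 at 30 to 100 and 0.86 at 10 to 30. Between the backgrounds 29.6%, 25.1% and 17.8% of the TSSCs matched between the experiments exceeded these limits. The mean was that of *upf1∆* and wild-type for repeats, but of *rrp6∆* and double mutant for the backgrounds. TSSCs low wherever Rrp6 was present, as both CUTs, were thus held to a narrower limit than their *upf1∆* over wild-type ratio allows. These shares can therefore overstate the excess over repeat error.

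Known NMD substrates were among the higher mRNAs. With the largest mRNA TSSC of each gene, 10.6% of 5231 genes were more than 2-fold higher and 0.401% lower. Of 13 measured genes known as NMD substrates 8 were higher and none lower, with a median of 1.14 beside 0.15 over all genes. *STN1* and *TEN1*, which cap telomeres, had 158 and 1137, and 30 and 145 reads in *rrp6∆* and double mutant cells. The telomerase subunits *EST1* (111 and 331), *EST2* (7 and 21) and *EST3* (169 and 547) and the magnesium transporter *ALR1* (101 and 352) were between 2.75-fold and 3.46-fold higher. *CTR2*, a vacuolar copper transporter, stood at 278 and 273, and *UPF3*, itself an NMD factor, at 269 and 242. A separate list of genes known for upstream ORFs lay nearer to the share over all genes, with 2 of 16 measured genes higher (12.5%), none lower and a median of 0.36.

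The machinery of RNA decay was mostly level. Of 13 NMD and decapping factors only *EBS1*, an Est1-like protein linked to NMD, passed 2-fold, with 268 and 729 reads, and *DCP2*, the decapping enzyme, had 85 and 93. Of 20 genes of the nuclear exosome and its partners none did but the deleted *RRP6* itself. Genes of glycolysis (0 of 18, median 0.10) and amino acid synthesis (1 of 54 higher and 1 lower, median -0.14) differed little. Of 137 ribosomal protein genes 4 were higher, with a median of -0.10, and *RPS26A* (954 and 2865) and *RPL22B* (229 and 769) were the highest of them. Genes with an intron outside this family were higher in 24 of 157 cases (15.3%), not far above the 10.6% over all genes. The highest were *NBL1* (159 and 1104), a chromosomal passenger subunit, and the meiotic recombination gene *REC107* (386 and 1973). Actin mRNA (*ACT1*) had 21902 and 23420 reads. On scales centred on mRNAs or on equal sums every log2 ratio falls by about the mRNA median of 0.17, so values and medians between 0 and 0.17, such as those of *ACT1*, glycolysis and the exosome genes, turn below 0.

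Of the 10 lowest mRNA TSSCs 7 belong to genes of the phosphate starvation response, in which the activator Pho4 binds CACGTG and turns on phosphate uptake and phosphatases when phosphate is scarce. *SPL2*, which restrains low-affinity phosphate uptake, had 505 reads in *rrp6∆* and 53 in double mutant cells, a 9.37-fold difference. *PHO84*, the high-affinity phosphate transporter, had 584 and 150, and the sodium-coupled transporter *PHO89* had 83 and 9. The acid phosphatase *PHO5* had 56 and 7, from 300 in wild-type cells, and *PHM6*, of unknown function, had 1010 and 299. The acid phosphatases *PHO11* (795 and 159) and *PHO12* (951 and 225) are near-identical copies whose reads can be misassigned between them. The other genes among the 10 were *ARG1*, described below, the mating type endonuclease *HO* (62 and 18) and the aromatic aminotransferase *ARO9* (45 and 16).

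Some of the lowest TSSCs of other genes and classes are neighbours of phosphate genes, which was noticed after the values were seen. The low *ARO9* TSSC is divergent from *SPL2*, while the main *ARO9* TSSC had 54 and 65 reads. XUT_4F-473, divergent from *PHM6*, had 56 and 17, and CUT_GIM_0172, ahead of *VTC2* on the other strand, had 326 and 143. XUT_11F-25 (115 and 46), CUT_GIM_0846 (137 and 67) and a sense start assigned to *SFK1* (35 and 12) were also more than 2-fold lower.

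Across 18 genes of this response, a list drawn up after these values were seen, 10 were more than 2-fold lower, none higher and 17 had ratios below 1, with a median of -1.04. Of the 4 VTC genes, whose products make polyphosphate, 3 were among the 10, as in *VTC1* with 4812 and 1966 reads. *VTC2* had 1758 and 2108 reads at its main TSSC but 460 and 225 at another one upstream. The *upf1∆* over wild-type ratio of the 18 genes was lower as well but less so, with 3 of 18 past 2-fold and a median of -0.69. Over all genes that ratio was more than 2-fold higher for 10.0% and lower for 0.478%. In the *SET2* experiment 4 of 18 were lower in *upf1∆* over wild-type (median -0.52) and 5 in *upf1∆set2∆* over *set2∆* cells (median -0.76). Genes of the same pathway that do not belong to this response, its regulators *PHO4*, *PHO80* and *PHO85*, the low-affinity transporters *PHO87*, *PHO90* and *PHO91*, *PHO2* and *PHO3*, had 0 of 8 lower and a median of 0.21.

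The motif CACGTG, which reads the same on both strands, lay within 500 nt upstream of the start codon in 15 of the 18 genes (83.3%) and in 6.61% of all 5231 genes. *SPL2* carried 4 copies and *PHO84* 2. Of all 346 genes with the motif 10 were more than 2-fold lower (2.89%), and all 10 are in the list. Of the 331 outside the list none was, with a median of 0.15. As the list was drawn up after the values were seen, that contrast is no separate result. Nor is the frequency of the motif in the list, since Pho4, the activator of this response, binds it.

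Starts on the opposite strand of several of these genes were higher where the mRNA was lower. Behind *PHO84* lies the start of CUT281, directed against the gene, which had 2, 9, 12 and 169 reads in wild-type, *upf1∆*, *rrp6∆* and double mutant cells, while *PHO84* had 793, 483, 584 and 150. Against *PHO89* a TSSC had 2, 21, 3 and 91 reads, and the mRNA 101, 35, 83 and 9. Against *PHO5* the start of XUT_2F-177 had 10, 73, 72 and 394, and the mRNA 300, 108, 56 and 7. The same held in *VTC1*, where CUT561 had 278 reads in *rrp6∆* and 802 in double mutant cells, and in *PHM6* with 20 and 56. Of the other lower phosphate genes, *PHO11*, *PHO12* and *VTC3* had few reads against them, 5 and 26, 4 and 23, and 6 and 35. *SPL2* (0 and 2) and *VTC4* (0 and 3) had almost none.

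**Figure D4:**
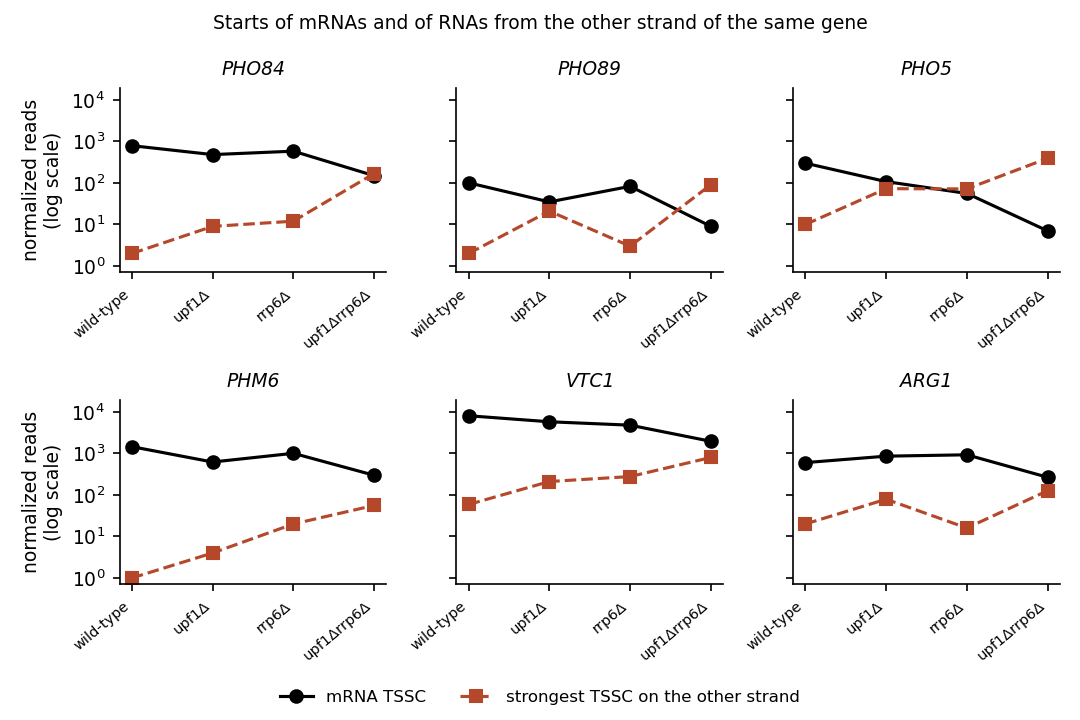
Normalized reads (log scale) in the 4 genotypes of the mRNA TSSC (black) and of the strongest TSSC on the other strand (red) of 5 phosphate starvation genes and *ARG1*. In *PHO84*, *PHO89* and *PHO5* the red value is the higher one in double mutant cells, as with 169 against 150 reads for *PHO84*.

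This pairing was not general. Of 1125 genes with an antisense sum of at least 20 on average, 51.0% had it more than 2-fold higher in double mutant cells, and the mRNAs of those 574 genes had a median log2 ratio of 0.18, beside 0.13 for 2524 genes with no antisense TSSC. Of the 574, 1.57% had an mRNA more than 2-fold lower, and of the 2524 0.0792%. Of 18 lower mRNAs with a mean of at least 20, 10 had such an antisense sum and in 9 it was more than 2-fold higher. Of all 4931 genes whose main mRNA TSSC had a mean of at least 20, these were 1125 and 574. Whether antisense starts bear on the lower mRNAs was not tested.

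Some lower genes had an upstream start on their own strand that was higher. Starting 324 nt ahead of the start codons of *PHO11* and *PHO12*, TSSCs had 115 and 531, and 109 and 547 reads in *rrp6∆* and double mutant cells. *ZRT1*, the high-affinity zinc transporter, had 24 and 179 reads at a distant upstream TSSC and 53 and 22 at the one nearer to its ORF. At *GIT1*, which is also a phosphate starvation gene, the upstream TSSC had 55 and 36 reads while that inside the ORF had the 2 and 54 given above. *VTC3* had 1177 and 574 at its main TSSC and 15 and 64 at one by the start codon, which had 17 and 15 in wild-type and *upf1∆* cells. Among mRNA TSSCs with all 4 values at 10 or more, its ratio exceeded that of *upf1∆* over wild-type by most.

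Most arginine genes lay on opposite sides of 0 in the backgrounds. *ARG1*, the argininosuccinate synthetase, had 603 reads in wild-type and 862 in *upf1∆* cells but 930 in *rrp6∆* and 267 in double mutant cells. *ARG4*, the argininosuccinate lyase, had 761, 1480, 1012 and 558, and *ARG3*, the ornithine carbamoyltransferase, 63, 148, 108 and 63. In a list of 8 measured arginine synthesis genes, made after the values were seen, all 8 ratios were above 1 in the wild-type background (median 0.55) and 7 of 8 below 1 in the *rrp6∆* background (median -0.46), although *ARG1* alone was more than 2-fold lower. The difference between the 2 log2 ratios was -2.31 for *ARG1*, beyond the 0.35 that held 95% of repeats at this level. A ratio that was lower than in the wild-type background was also seen for some of these genes without Set2. In the *SET2* experiment *ARG1* had 606 reads in wild-type and 1041 in *upf1∆* cells, but 178 in *set2∆* cells and 161 in those that lack Set2 and Upf1. In that order *ARG3* had 80, 167, 18 and 11 and *ARG4* 797, 1518, 518 and 523, whereas *ARG8*, an aminotransferase of the same pathway, had 323, 607, 135 and 262. Against *ARG1*, TSSCs of XUT_15R-116 had 16 and 127, and 7 and 43 reads in *rrp6∆* and double mutant cells.

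**Figure D5:**
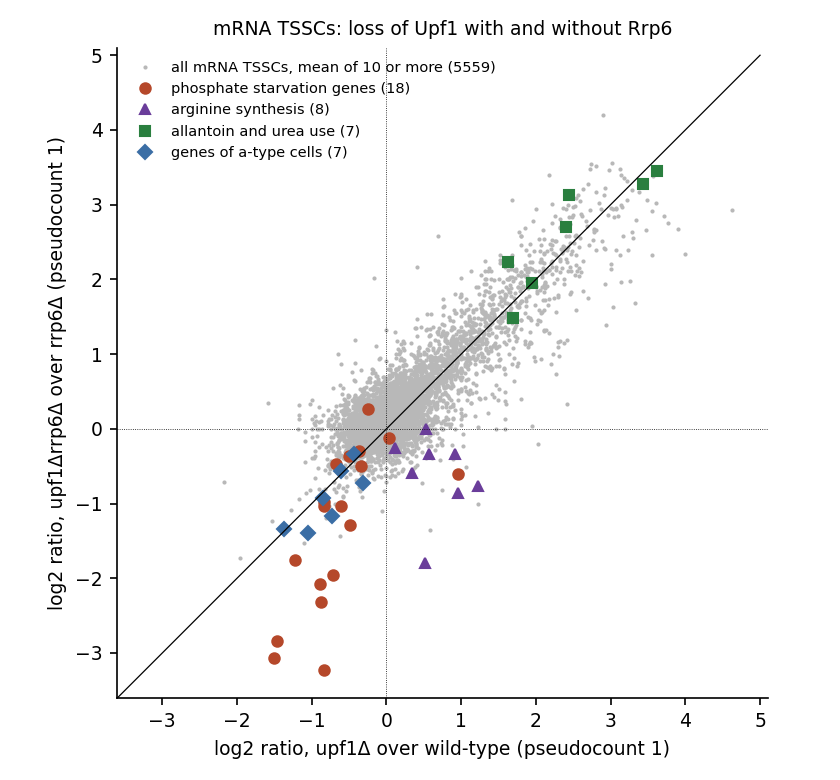
Log2 ratio of *upf1∆rrp6∆* over *rrp6∆* (vertical axis) against that of *upf1∆* over wild-type (horizontal axis), both with a pseudocount of 1, for 5559 mRNA TSSCs with a mean of at least 10 (grey) and for the main TSSCs of 4 gene lists; the solid line marks equal ratios. Phosphate starvation genes (red) lie mostly below the line, with *SPL2* at -0.84 and -3.23, and arginine genes (purple) lie right of 0 and mostly below 0.

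The medians of other groups lay on the same side of 0 in both backgrounds. Genes for the use of allantoin and urea as nitrogen sources were more than 2-fold higher in 7 of 8 cases (median 2.47, and 2.18 for *upf1∆* over wild-type), with *DAL2* at 76 and 746 reads, *DUR3*, the urea transporter, at 20 and 183, and *DAL5*, the allantoate permease, at 32 and 213. The genes that mark a-type cells, the mating type of BY4741, were all 7 lower, 3 of them past 2-fold (median -0.93, and -0.73 for *upf1∆* over wild-type). The pheromone gene *MFA1* had 2032 and 902 reads, the agglutinin subunit *AGA2* 652 and 258, and *ASG7* 107 and 40. *SAG1* and *STE3*, which mark alpha cells, had 23 and 69, and 81 and 120. The alpha2 gene of the silent HML locus had 121 and 462 reads and the silencing gene *SIR1* 41 and 233. *SIR2* (195 and 192) and *SIR3* (327 and 318) were level, and *SIR4* had 36 and 28. Reads assigned to the a1 gene at HMR (1345 and 1520) were level too. As a-type cells also carry a1 at the active mating type locus, these reads do not show the state of the silent copy. Fewer cells of a type and less RNA per cell cannot be told apart in these cultures. All the lists named in this paragraph were made after the values were seen.

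Near chromosome ends higher ratios were more frequent in some classes. Of mRNA TSSCs with a mean of at least 10, 45.8% of 118 within 20 kb of an end were more than 2-fold higher, 20.3% of 404 at 20 to 50 kb and 11.7% of 5037 further inside. Lower mRNA TSSCs were more frequent there as well, 3.39% (4), 1.24% and 0.278%. The 4 nearest the ends were those of the phosphate genes *PHO11*, *PHO12* and *PHO89* described above and of *YHR214C-E*, which is divergent from *PHO12*. In the same order the shares higher were 88.3%, 82.7% and 69.0% for XUTs, 74.4%, 61.5% and 49.3% for intergenic TSSCs and 52.8%, 36.9% and 32.5% for CUTs. Antisense TSSCs (59.1%, 29 of 58 and 59.3%) and sense internal ones (55.3%, 45.5% and 51.6%) showed no such order.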

How the data were processed

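Capped 5′-ends of poly(A)+ RNA were sequenced from cells in exponential growth in rich medium. According to the submitters' processing notes reads were aligned with Bowtie2 to build R64. The authors joined neighbouring 5′-ends into TSSCs, filtered these on TAP dependence, and scaled reads with DESeq2 to those starting just ahead of ORFs. The deposited score of a TSSC is the resulting whole number, 1 pooled value per genotype, which does not carry the depth of single libraries. Log2 fold changes and p-values of the authors' own comparisons are also deposited and were not used. The number of unused columns with values of a single sample was 0.

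Log2 ratios were computed after adding 1, with a limit of 2-fold. Python 3.11.15, pandas 2.3.3, numpy 2.4.6 and matplotlib 3.10.9 were used, and the counting was tested on simulated data. The members and gene lists were chosen with earlier results of these data known, and the phosphate, arginine, allantoin and mating type lists after the values were seen. TSSCs of both experiments were matched by an overlap of at least 1 nt on a strand. Named TSSCs are the 10 highest and 10 lowest mRNA ratios and the 3 highest and 2 lowest of each other class at a mean of the 2 values of at least 20, the 5 that differ most from *upf1∆* over wild-type in each direction (all values at least 10) and, at any mean, the deleted genes, *ACT1* and members of the lists. Alternatives were a pseudocount of 0.1, a mean of at least 10, centring on the mRNA median, equal sums and a limit of 1.5-fold.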

Additional observations from a re-analysis of the deposited data

How the results depend on the processing

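No paired analysis was possible because the table holds 1 pooled value per genotype, and for the same reason no library was left out in turn. Of 778 values of 196 named TSSCs under the alternatives, 722 stayed near those reported and 56 moved. The sign changed in 23 values, of which 0 belong to TSSCs past 2-fold. With a pseudocount of 0.1 the lower share was 0.848% of all and 0.759% of mRNA TSSCs, the higher share of stable RNAs and repeats 13.1%, and the median log2 ratio 1.72 for XUTs, 1.34 for SUTs, 1.41 for antisense and 1.21 for both intergenic and sense internal TSSCs. At a mean of at least 10 the medians were 0.51 for all TSSCs, 1.60 for XUTs, 1.27 for SUTs and 1.24 for antisense TSSCs. Centred on mRNAs, 0.966% of all and 0.945% of mRNA TSSCs were lower, and the medians were 0.48 (all), 0.0 (mRNA), 0.51 (CUT), 1.26 (XUT), 0.97 (SUT), 0.83 (intergenic, antisense and sense internal) and 0.083 (stable RNAs and repeats). With equal sums these were 0.977% and 0.962%, and 0.49, -0.0049, 0.52, 1.28, 0.98, 0.90 (intergenic), 0.87 (sense internal) and 0.0802 (stable RNAs and repeats). At a limit of 1.5-fold, 2.29% of all and 1.94% of mRNA TSSCs were lower, and 24.0% of mRNA, 54.7% of CUT and 22.9% of stable RNA and repeat TSSCs higher. The cause of these shifts was not tested. As libraries were pooled, only differences well above the repeat error at the same level can be read, and values under 10 carry little.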
